A study of Rattus norvegicus with 23 samples.

Results

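Immediate early genes are switched on within minutes of a stimulus from transcription factors that are already in the cell, so their transcripts rise and fall ahead of those of slower responses. They were followed here in microglia of neonatal rats as a list of 10 genes: Fos, Fosb, Jun, Junb, Egr1, Egr2, Nr4a1, Atf3, Dusp1 and Ier2. The deposited table held 9 of the 10 by symbol among 20301 genes, and Dusp1, which encodes a phosphatase that switches off MAP kinases, was not analysed here. Members were taken by gene symbol, from a list drawn up with earlier results of these data known.

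Wistar rat pups of both sexes were operated at 7 days of age and gave 23 samples: 6 of Sham, 5 of LPS and 6 each of NaCl/HI and LPS/HI. Sham pups had a neck incision under isoflurane with no injection listed, and LPS pups had 0.1 mg/kg of Escherichia coli lipopolysaccharide, a bacterial wall component, 4 h before the same incision. NaCl/HI and LPS/HI pups received NaCl or the same LPS dose, then ligation of the left carotid artery and 50 min at 8% oxygen, which together make hypoxia-ischemia (HI) of a mild grade. All 4 groups shared the isolation 24 h after the operation: mechanical and enzymatic dissociation, removal of myelin, and magnetic beads against CD11b/c, a surface marker that other myeloid cells carry too. Each Sham or LPS sample was the entire brain of 1 pup, whereas each HI sample pooled the ipsilateral hemispheres of 2 pups, so HI, the tissue taken and pooling cannot be told apart. As no injection is listed for Sham, the injection itself cannot be told apart from the treatment in any comparison with Sham. The study compared the groups to ask how inflammation before HI changes microglia. The paper names dissection and isolation as known influences on the activation of microglia. It states that the samples were handled rapidly and in the cold to limit this. No sample of tissue that was not dissociated was among the 23, so the part of the isolation in the level or the spread of these genes was not tested.

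Values are log2 values from the rlog transformation, which draws weakly expressed genes toward their mean, after the authors had removed 3 surrogate variables, which are patterns across samples found from the data. The median of all genes in a sample lay between 7.75 and 7.82, and the depth per sample is unknown. The cells' label was checked against a list of 15 microglia markers, of which 14 lay between 11.10 and 16.64 in every sample, with P2ry12 between 13.44 and 14.41, Tmem119 between 11.85 and 13.20 and Cx3cr1 between 15.38 and 15.70. The exception was Siglech, between -1.09 and -0.999 and thus close to the lowest value of the table at -1.35. Transcripts of other cells were present as well, such as Mrc1 of border macrophages between 13.07 and 14.30, Pecam1 of endothelium between 12.14 and 12.55, Gfap of astrocytes between 10.05 and 12.19, Snap25 of neurons between 6.59 and 7.75 and S100a8 of neutrophils between 7.98 and 10.95. In such bulk samples, fewer cells of a type and less RNA per cell cannot be told apart.

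The members act at different points of the early response. Fos, Fosb, Jun and Junb pair through leucine zippers into the AP-1 transcription factors, Atf3 joins them as a stress-induced partner, Egr1 and Egr2 are zinc finger transcription factors, Nr4a1 is an orphan nuclear receptor, and Ier2 is a short nuclear protein. Stimuli reach these genes mainly over MAP kinases, which activate serum response factor partners at CArG boxes, and over CREB, which binds cyclic AMP response elements. In microglia the genes respond to danger and cytokine signals and are also known to respond to the dissociation of tissue.

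The sequences just ahead of the annotated start sites can be read for matches to these elements. RefSeq promoters of build GRCr8, a different build from the mRatBN7.2 transcripts on which the reads were quantified, were found for 7 of the 10 listed genes, and Fos, Jun and Atf3 had no entry. The 250 bases ahead of the start were searched on both strands for the CArG box, for the full cyclic AMP response element TGACGTCA, for its core TGACG, which the full element also contains, and for the AP-1 site TGACTCA. Shown are the 3 members that passed a test below, Egr2, Fosb and Egr1, and Nr4a1, the only member with higher values than the Sham mean in all 5 LPS samples. They are Egr2 at chr20:21054442-21054691 on the minus strand, Fosb at chr1:88089185-88089434 on the minus strand, Egr1 at chr18:26736828-26737077 on the plus strand and Nr4a1 at chr7:134259888-134260137 on the plus strand. Each is written 5′ to 3′ and ends at the base ahead of the start, with matches in capitals.
Egr2: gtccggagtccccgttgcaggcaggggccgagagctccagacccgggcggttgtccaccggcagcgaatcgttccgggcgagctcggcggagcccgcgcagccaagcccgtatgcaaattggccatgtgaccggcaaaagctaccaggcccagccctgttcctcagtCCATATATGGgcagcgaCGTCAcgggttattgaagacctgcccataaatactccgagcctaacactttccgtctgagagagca
Fosb: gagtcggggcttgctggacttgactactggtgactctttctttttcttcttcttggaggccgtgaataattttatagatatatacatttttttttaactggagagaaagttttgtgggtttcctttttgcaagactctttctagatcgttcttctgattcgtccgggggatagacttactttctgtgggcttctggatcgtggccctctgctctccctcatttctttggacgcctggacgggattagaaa
Egr1: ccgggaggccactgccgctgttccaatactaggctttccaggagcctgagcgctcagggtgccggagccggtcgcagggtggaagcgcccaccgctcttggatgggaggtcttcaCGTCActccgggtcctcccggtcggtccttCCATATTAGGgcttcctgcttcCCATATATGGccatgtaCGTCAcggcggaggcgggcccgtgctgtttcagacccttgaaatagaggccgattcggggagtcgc
Nr4a1: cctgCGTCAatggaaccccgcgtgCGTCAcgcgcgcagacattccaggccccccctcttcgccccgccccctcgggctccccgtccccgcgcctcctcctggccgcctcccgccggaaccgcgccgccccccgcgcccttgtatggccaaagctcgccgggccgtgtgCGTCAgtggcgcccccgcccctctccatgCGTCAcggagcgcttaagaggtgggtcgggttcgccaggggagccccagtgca
Egr1 carried 2 CArG boxes, at 105 to 96 and at 83 to 74 bases ahead of the start, and Egr2 carried 1, at 83 to 74 bases. In both genes a core element in reverse orientation lay 66 to 62 bases ahead of the start, and Egr1 had a second at 135 to 131 bases. Nr4a1 had no CArG box and 4 core elements, at 246, 226, 82 and 53 bases by their far ends. Among the members not printed, Ier2 held a full cyclic AMP response element 66 to 59 bases ahead of its start, Dusp1 held one at 124 to 117 bases, and Junb held 1 core element at 155 to 151 bases. Fosb matched none of these letters in this window, and no member with an entry matched the AP-1 site. Of all 33469 RefSeq promoters of the same length, 1.5% held a CArG box, 1.59% the full cyclic AMP response element, 18.2% its core and 4.05% the AP-1 site. A match is a description of letters, and binding was not measured. Elements outside this window or near another start were not searched, so a gene with no match may still carry them.

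Across the 4 groups the members stayed within a narrow range of levels, and their mean was highest in Sham. Averaged over the 9 members, the log2 level was 12.98 ± 0.13 (SD, n = 6) in Sham, 12.77 ± 0.08 (SD, n = 5) in LPS, 12.85 ± 0.12 (SD, n = 6) in NaCl/HI and 12.81 ± 0.15 (SD, n = 6) in LPS/HI. Sham samples ran from 12.74 to 13.10, LPS samples from 12.66 to 12.86, NaCl/HI samples from 12.67 to 12.98 and LPS/HI samples from 12.61 to 12.99, so all groups overlapped on this average. Sham held the highest group mean for 6 of the 9 members, LPS for Junb and Nr4a1, and NaCl/HI for Atf3. The lowest group mean was in LPS for 4 members, in LPS/HI for 3 and in NaCl/HI for 2.

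**Figure D1:**
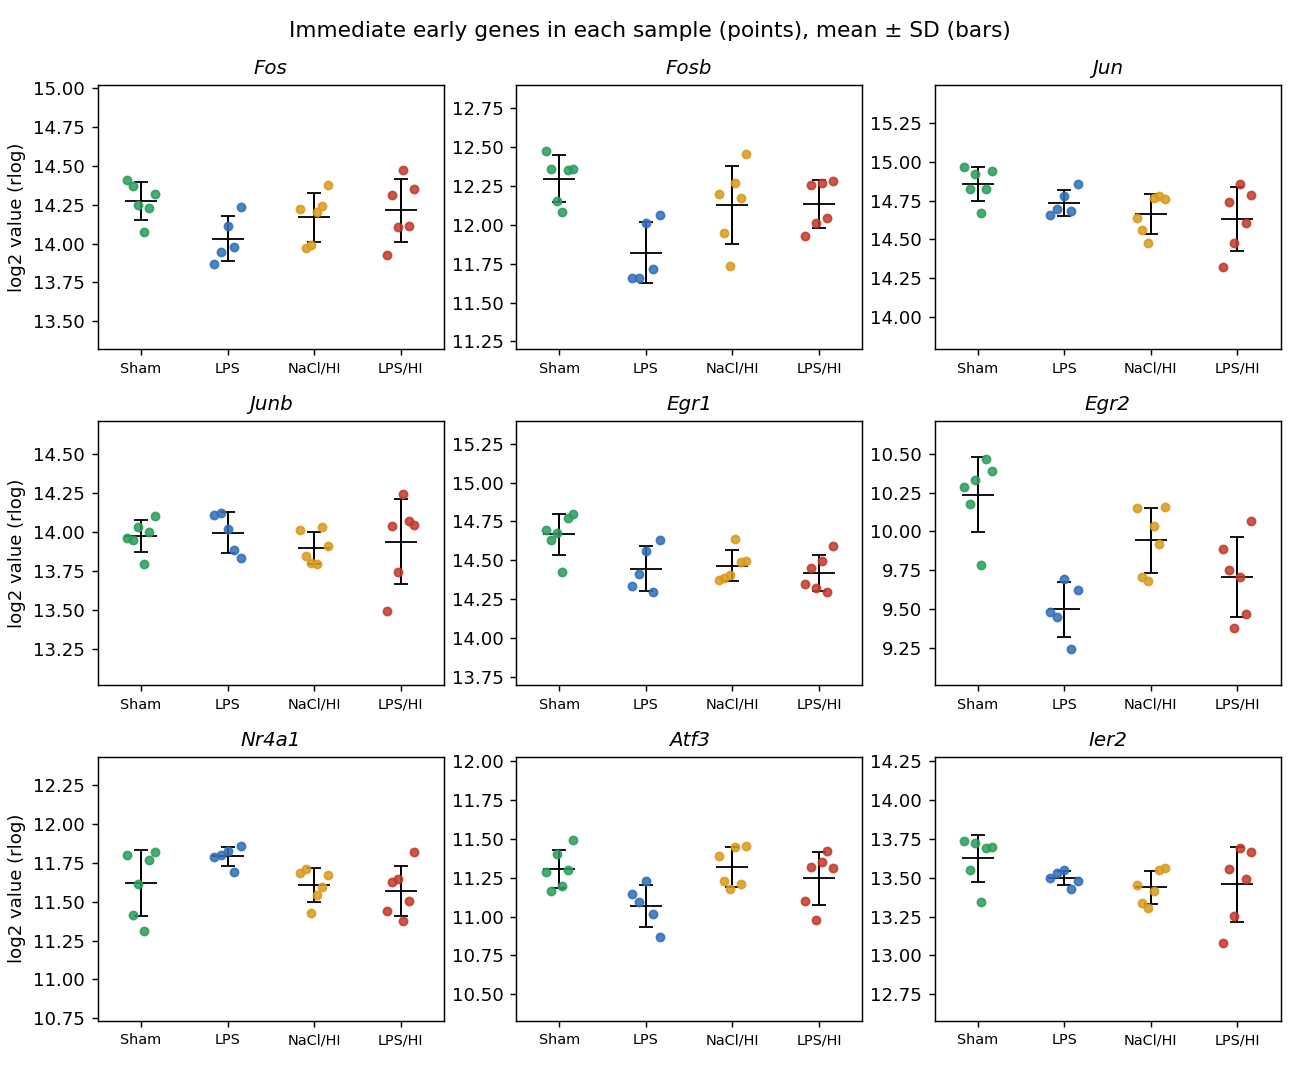
Log2 level (rlog values, vertical axes of equal length) of the 9 immediate early genes in every sample of the 4 groups (points), with the group mean and SD (bars). The 5 LPS samples of Egr2, up to 9.70, and of Fosb, up to 12.06, lie below all 6 Sham samples, whereas those of Junb and Nr4a1 lie within or above the Sham range.

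Egr2 and Fosb were lower in LPS than in Sham, and they were the only members that passed the test there. The comparisons came from a single limma model of the 23 samples with Benjamini-Hochberg adjustment over all genes, and a gene was called at an adjusted p under 0.05. By this rule 17.8% of all 20301 genes were called in LPS against Sham and 7.56% were called as lower, beside 2 of 9 members called as lower and 0 as higher. Genes whose LPS and Sham samples did not overlap made up 13.9% of all genes, beside 2 of 9 members. The members' median difference was -0.22, and that of all genes was -0.014.

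Egr2 encodes a zinc finger factor known from myelination and from the myeloid lineage. Its log2 level in Sham ran from 9.78 over a median of 10.31 to 10.46. In LPS the 5 values were 9.48, 9.45, 9.70, 9.24 and 9.63. Every LPS sample thus lay below the lowest Sham sample, which was replicate 4 and stood apart from the other Sham samples at 10.17 or more. The difference was -0.74 ± 0.13 (SE), a 1.67-fold lower level on the rlog scale (limma, adjusted p = 0.00053). It was -0.72 among libraries numbered 1 to 12 and -0.78 among those numbered 13 to 23. The numbers run on without a gap and the labels name no batch, but the order of the groups starts anew at 13, and the libraries were divided there into a first and a second series for this check.

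Fosb encodes a Fos family partner of AP-1. Its Sham samples ran from 12.08 over a median of 12.36 to 12.48. The LPS values were 11.66, 11.66, 12.01, 11.72 and 12.06. The LPS samples fell into 3 low and 2 higher values, and the highest stood just under the lowest Sham sample, again replicate 4. Fosb differed by -0.48 ± 0.11 (SE), which is 1.39-fold lower (limma, adjusted p = 0.00587), and by -0.55 and -0.38 within the first and second library series.

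The remaining members did not pass in this comparison, although 5 of the 9 had an unadjusted p under 0.05. Egr1, a zinc finger factor induced by growth and stress signals, differed by -0.22 ± 0.08 (SE, limma, adjusted p = 0.0517). Atf3 differed by -0.24 ± 0.08 (SE, limma, adjusted p = 0.0546) and Fos by -0.25 ± 0.10 (SE, limma, adjusted p = 0.0785). In all 3 genes the 5 LPS samples lay below the Sham mean while overlapping the Sham range. Within the first and second series Egr1 was at -0.23 and -0.20, Atf3 at -0.13 and -0.39 and Fos at -0.37 and -0.10. Leaving out LPS replicate 3 brought the count of called members from 2 to 4, with Egr1 and Atf3 added, and leaving out LPS replicate 5 also brought it to 4, with Fos and Egr1 added. Jun, the main partner of Fos, differed by -0.12 ± 0.09 (SE) and Ier2 by -0.13 ± 0.09 (SE). The 2 members with higher means in LPS were Nr4a1, at 0.17 ± 0.09 (SE, limma, adjusted p = 0.198) and above the Sham mean in 5 of 5 LPS samples, and Junb, at 0.02 ± 0.10 (SE, limma, adjusted p = 0.912).

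Markers of cell types were called in the same comparison too, beside 17.8% of all genes. Of 7 monocyte and border macrophage markers 1 was called as higher and 2 as lower, with a median of -0.46. Among them Lyve1 fell by 0.83 and Mrc1 by 0.50 while Plac8 rose by 1.17. The log2 of the summed list, which mixes these directions, ran from 14.45 to 14.93 in LPS and from 14.63 to 15.56 in Sham. Of 11 neuron markers 6 were called as lower and 0 as higher, with sums from 11.18 to 11.43 in LPS and from 11.37 to 11.63 in Sham. Of 15 microglia markers 6 were called as lower and 2 as higher, with sums from 18.22 to 18.29 in LPS and from 18.20 to 18.43 in Sham. Of 8 astrocyte markers 2 were called as higher and 0 as lower. Of 8 endothelial markers 1 was called as higher and 3 as lower, and of 11 neutrophil markers 1 and 2. Of the 8 oligodendrocyte, 10 mural and fibroblast, 6 T and B cell and 5 erythrocyte markers limma called 0, with 1, 1, 2 and 3 at an unadjusted p under 0.05. Near the low end of the table lay Siglech, Elane of neutrophils between 0.25 and 0.44 and Ms4a1 of B cells between 0.68 and 1.01, and without counts such values do not show whether a transcript was detected. The part of these cell types in the differences of Egr2 and Fosb was not tested. No member passed a fold of 2, which 0.232% of all genes did together with an adjusted p under 0.05 in any of the 7 comparisons.

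HI without LPS left no member past the threshold. In NaCl/HI against Sham 0 of 9 members were called by limma, 4 had an unadjusted p under 0.05, and an exact permutation test adjusted over all genes called 0. With 6 samples per group the p of the permutation test cannot fall below a floor, so its 0 here decides little. By limma 0.00985% of all genes were called, and 1.01% had groups that did not overlap, beside 0 members. The lower values lay in 8 of 9 members, with a median of -0.17 against -0.0073 for all genes, and without NaCl/HI replicate 3 the members' median was -0.090. Egr2 ran from 9.68 over a median of 9.98 to 10.16 in NaCl/HI and differed from Sham by -0.30 ± 0.13 (SE, limma, adjusted p = 0.288). Egr1 differed by -0.20 ± 0.07 (SE, limma, adjusted p = 0.223), Jun by -0.19 ± 0.08 (SE) and Ier2 by -0.19 ± 0.09 (SE), and in each of these 4 genes all 6 NaCl/HI samples lay below the Sham mean. The library series differed here, with -0.42 in the first and -0.17 in the second for Egr2, -0.28 and -0.12 for Egr1, -0.35 and -0.04 for Jun and -0.30 and -0.07 for Ier2. Fos and Fosb changed sign between them, from -0.28 to 0.07 and from -0.37 to 0.03, and whether the series differ was not tested. Atf3 differed by 0.01 ± 0.08 (SE) with a 95% interval from -0.15 to 0.18.

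Egr2 and Egr1 were lower in LPS/HI than in Sham. These 2 of 9 members were called as lower and 0 as higher, beside 8.77% of all genes called and 3.48% called as lower. Non-overlapping groups were found for 6.37% of all genes and for 0 members. The differences of all 9 members were below 0, with a median of -0.17 against -0.0024 for all genes. This median was -0.093 without LPS/HI replicate 1, and -0.020 with quality weights for the samples, under which Fos, Junb, Nr4a1 and Atf3 were above 0. Egr2 ran from 9.38 over a median of 9.73 to 10.07 in LPS/HI and differed by -0.53 ± 0.13 (SE, limma, adjusted p = 0.015), a 1.44-fold lower level. Its 6 LPS/HI samples all lay below the Sham mean, and replicates 1 and 6 lay above Sham replicate 4, the lowest of its group. Within the library series the difference was -0.59 and -0.46.

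Egr1 in LPS/HI ran from 14.29 over a median of 14.40 to 14.59, and in Sham from 14.42 over a median of 14.69 to 14.80. All LPS/HI samples lay below the 5 highest Sham samples, and 3 of them lay above Sham replicate 4. The difference was -0.25 ± 0.07 (SE), a 1.19-fold lower level (limma, adjusted p = 0.0383), and -0.29 and -0.20 within the library series. This call was lost, and the count fell from 2 to 1, when any of Sham replicates 1, 2, 3, 5 and 6 or LPS/HI replicates 1 to 5 was left out, with adjusted p in limma up to 0.0976. An exact permutation test adjusted over all genes called 0 members here. Jun differed by -0.23 ± 0.08 (SE, limma, adjusted p = 0.0858), with 5 of 6 LPS/HI samples below the Sham mean, and Fosb by -0.17 ± 0.11 (SE, limma, adjusted p = 0.331), with 6 of 6 below it. The other 5 members, Ier2, Fos, Atf3, Nr4a1 and Junb, differed by between -0.17 and -0.04. In the first and second series Jun was at -0.39 and -0.06 and Fosb at -0.27 and -0.07, and Fos, Junb, Atf3 and Ier2 were below 0 in the first and above 0 in the second.

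Markers of cell types were called here as well, beside 8.77% of all genes. In LPS/HI against Sham, 4 of 11 neutrophil markers were called as higher and 0 as lower, with sums from 12.46 to 13.49 in LPS/HI and from 12.17 to 12.51 in Sham. Of 10 mural and fibroblast markers 5 were called as higher, with sums from 13.17 to 13.34 in LPS/HI and from 12.94 to 13.12 in Sham, and 2 of 8 endothelial and 2 of 8 astrocyte markers were called as higher. Of 11 neuron markers 3 were called as lower and of 15 microglia markers 2. Of 7 monocyte and border macrophage markers 1 was called as higher and 1 as lower, with Lyve1 at -0.60 and Plac8 at 0.45. Limma called 0 of the oligodendrocyte, T and B cell and erythrocyte markers, with 0, 1 and 0 at an unadjusted p under 0.05. Their part in the differences of Egr2 and Egr1 was not tested.

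The 3 comparisons among LPS, NaCl/HI and LPS/HI gave 1 call among the members in all. In LPS/HI against LPS, where the pups had the same injection, 0 of 9 members were called by limma, beside 1.94% of all genes. Of the members 3 had an unadjusted p under 0.05. The exact permutation test called 0, which decides little given the floor of its p. Fosb was higher by 0.31 ± 0.11 (SE, limma, adjusted p = 0.161) with 6 of 6 LPS/HI samples above the LPS mean, Atf3 by 0.18 ± 0.08 (SE, limma, adjusted p = 0.313), and Nr4a1 was lower by 0.22 ± 0.09 (SE, limma, adjusted p = 0.216). None of the 9 had groups that did not overlap, beside 4.17% of all genes. With each sample weighted by its estimated quality, 3 members, Fos, Fosb and Atf3, were called instead of 0. In the main fit 4 of 10 mural and fibroblast, 3 of 8 endothelial, 1 of 11 neuron and 1 of 11 neutrophil markers were called as higher. Of 7 monocyte and border macrophage markers 1 was called as lower, and limma called 0 markers of the other lists. The part of these cell types in the members' values was not tested.

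LPS/HI against NaCl/HI kept the tissue and the pooling the same, and asked what prior LPS adds within HI. Here 0 members were called by limma, beside 0.202% of all genes, and 0 had an unadjusted p under 0.05. The exact permutation test called 0, which again decides little given the floor of its p. No member had groups that did not overlap, beside 1.33% of all genes. The difference that was farthest from 0 was that of Egr2, at -0.23 ± 0.13 (SE), with a 95% interval from -0.49 to 0.03. The other 8 members differed by between -0.07 and 0.04.

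LPS against NaCl/HI set both treatments side by side. Egr2 was lower in LPS by 0.44, with an SE of 0.13 and a 1.36-fold lower level (limma, adjusted p = 0.0382), and was the 1 member of 9 called, beside 8.98% of all genes called and 3.66% called as lower. Its highest LPS sample at 9.70 lay above the lowest NaCl/HI sample at 9.68, so the groups overlapped, as they did for all members, beside 7.31% of all genes that did not overlap. Within the library series the difference was -0.30 and -0.60. The call was lost, and the count fell from 1 to 0, without LPS replicate 1, 2 or 4 or NaCl/HI replicate 1, 4, 5 or 6, with adjusted p in limma up to 0.114. Without LPS replicate 3, NaCl/HI replicate 3 or LPS/HI replicate 3 it rose to 2. The exact permutation test and a fit with replicate number as a block called 0. Atf3 differed by -0.25 ± 0.08 (SE, limma, adjusted p = 0.0681) and Fosb by -0.31 ± 0.11 (SE, limma, adjusted p = 0.0955), each with 5 of 5 LPS samples below the NaCl/HI mean. Nr4a1 differed by 0.19 ± 0.09 (SE, limma, adjusted p = 0.219), with 5 of 5 LPS samples above it. In the same comparison 2 of 15 microglia markers were called as higher and 5 as lower, beside 8.98% of all genes called. Siglech, near the lowest value of the table, was among those called as lower. Of the 7 monocyte and border macrophage markers 1 was called as higher and 1 as lower, with Plac8 up by 1.26 and Lyve1 down by 0.57. Of 10 mural and fibroblast markers 2 were called as lower and all 10 were below 0, with sums from 12.80 to 13.14 in LPS and from 12.99 to 13.33 in NaCl/HI. Of 11 neuron markers 2 were called as lower, of 11 neutrophil markers 1, of 8 endothelial markers 1 as higher and 2 as lower, and of 8 astrocyte markers 2 as higher. Among the oligodendrocyte, T and B cell and erythrocyte markers limma called 0, with 5, 2 and 0 at an unadjusted p under 0.05. The part of these cell types in the difference of Egr2 was not tested.

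The interaction asks whether the difference that LPS makes was the same without and with HI. In limma 0 of 9 members were called for it and 3 had an unadjusted p under 0.05, beside 1.08% of all genes called. The estimates were 0.51 ± 0.18 (SE, limma, adjusted p = 0.185) for Egr2, 0.48 ± 0.16 (SE, limma, adjusted p = 0.136) for Fosb and 0.29 ± 0.13 (SE, limma, adjusted p = 0.299) for Fos. Of the 9 estimates 8 were above 0, with a median of 0.17 against 0.014 for all genes, and Nr4a1 was at -0.21 ± 0.12 (SE). Because the HI samples came from pooled hemispheres, the tissue and pooling enter this estimate as well. The injection itself enters too, as none is listed for Sham while NaCl/HI pups received NaCl. With quality weights for the samples, 2 members, Fos and Fosb, were called in place of 0. In the main fit 1 of 8 endothelial markers was called, above 0, and limma called 0 markers of the other lists. At an unadjusted p under 0.05 were 6 of the 8 endothelial and 7 of 11 neutrophil markers. The part of these cell types in the estimates was not tested.

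**Figure D2:**
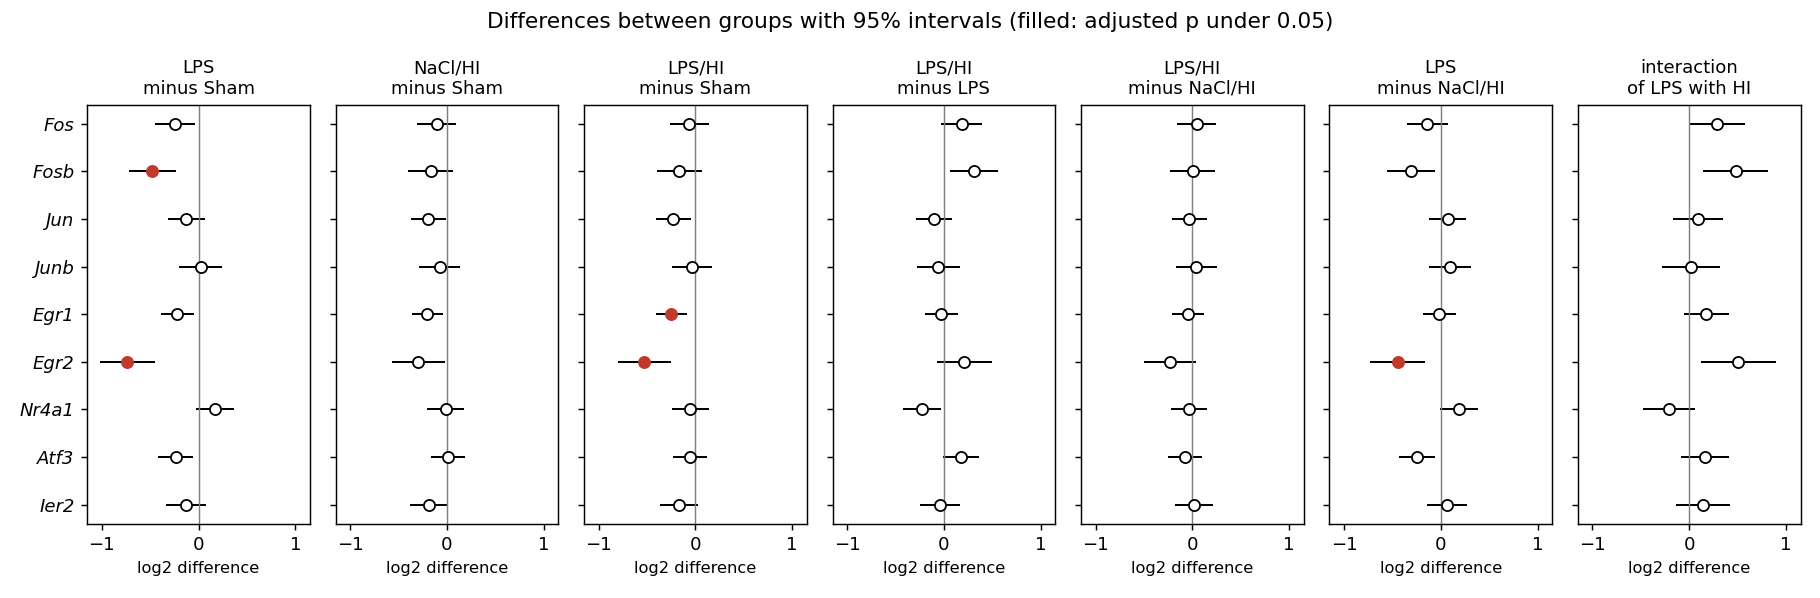
Log2 difference of each immediate early gene in the 6 pairs of groups and in the interaction (horizontal axes), with 95% intervals (lines) and called genes filled in red. Filled points stand for Fosb and Egr2 in LPS against Sham, Egr1 and Egr2 in LPS/HI against Sham and Egr2 in LPS against NaCl/HI, all below 0.

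For each member the 4 group means were put in order from highest to lowest and neighbours in that order were compared. None of the 27 neighbouring steps passed the test. The smallest adjusted p in limma was 0.0955, for Fosb between NaCl/HI and LPS. Egr2 fell in the order Sham, NaCl/HI, LPS/HI and LPS, with means of 10.24, 9.94, 9.71 and 9.50. Fosb had the order Sham, LPS/HI, NaCl/HI and LPS, with means of 12.30, 12.13, 12.13 and 11.82.

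Of 20 close relatives of the members 4 were called in LPS against Sham, a share near the 17.8% of all genes. The list held further Fos, Jun, Egr, Nr4a and Ier family genes, the phosphatases Dusp2, Dusp4, Dusp5 and Dusp6, the Batf and Jdp2 zipper proteins and the Egr corepressors Nab1 and Nab2. Of the 4, 2 rose and 2 fell. Egr3, the paralogue of Egr2, fell by 0.58 (SE 0.13, limma, adjusted p = 0.00394), and Nab1 by 0.20 (SE 0.05, limma, adjusted p = 0.00591). Batf, a zipper protein that pairs with Jun proteins, rose by 0.50 (SE 0.11, limma, adjusted p = 0.00296), and Egr4 by 0.29 (SE 0.09, limma, adjusted p = 0.0334) from a low level of 3.42 in Sham. For LPS/HI against Sham, 1 rose, Batf at 0.45, and 1 fell, Egr3 at -0.50 (limma, adjusted p = 0.0134 and 0.0184), beside 8.77% of all genes called. In LPS against NaCl/HI 2 rose, Egr4 at 0.32 and Dusp6, a phosphatase of ERK kinases, at 0.20, and 0 fell, beside 8.98% of all genes. In the other 4 comparisons limma called 0 of the 20, with between 1 and 3 at an unadjusted p under 0.05. The list's median difference in LPS against Sham was -0.05.

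In a wider list of 31 other early-response genes 3 rose and 4 fell in LPS against Sham, with a median of -0.10, again beside 17.8% of all genes called. Klf10, a repressor induced by TGF-beta, fell by 0.61 (SE 0.09, limma, adjusted p = 8.4e-05), Sgk1, a kinase induced by glucocorticoids, by 0.45 (SE 0.10, limma, adjusted p = 0.00462), and Plk3, a stress-response kinase, by 0.31 (SE 0.06, limma, adjusted p = 0.00208). Pim1, a kinase induced by cytokines over STAT proteins, rose by 0.67 (SE 0.07, limma, adjusted p = 1.06e-06), and Cebpb, a transcription factor of myeloid inflammation, by 0.57 (SE 0.11, limma, adjusted p = 0.00109). For LPS/HI against Sham, 3 rose and 2 fell, with Pim1 at 0.40, Klf10 at -0.51 and Plk3 at -0.20, beside 8.77% of all genes. When LPS/HI was set against LPS, 2 rose and 1 fell, with Sgk1 at 0.42 and Pim1 at -0.27, beside 1.94%. Against NaCl/HI, 2 rose in LPS/HI, Pim1 among them at 0.35, and 0 fell, beside 0.202%. In LPS against NaCl/HI 3 rose and 2 fell, beside 8.98%, and in NaCl/HI against Sham limma called 0, with 13 at an unadjusted p under 0.05. The interaction was called for 1 gene, above 0, beside 1.08% of all genes.

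The kinases and factors upstream of the early genes formed a list of 27. In LPS against Sham 5 rose and 3 fell, with a median of -0.02, beside the same 17.8% of all genes. Mapk3, the kinase ERK1, rose by 0.22 (SE 0.05, limma, adjusted p = 0.0036), Rps6ka1, a kinase below ERK that acts on CREB, by 0.22 (SE 0.04, limma, adjusted p = 0.000927), and Mapk14, the stress kinase p38 alpha, by 0.14 (SE 0.04, limma, adjusted p = 0.0193). Elk3, a serum response factor partner with repressor activity, fell by 0.25 (SE 0.05, limma, adjusted p = 0.00204), and Mapk8, the kinase JNK1, by 0.20 (SE 0.06, limma, adjusted p = 0.0185). In LPS against NaCl/HI 2 rose and 1 fell, beside 8.98% of all genes called. In the other 5 comparisons limma called 0, with between 0 and 6 at an unadjusted p under 0.05. Transcript levels do not give the activity of these kinases, which was not measured.

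Among 16 inflammatory early-response genes, Ccl2, a chemokine for monocytes, fell by 0.66 in LPS against Sham (SE 0.12, limma, adjusted p = 0.00076) and Il1b, the cytokine interleukin-1 beta, rose by 0.43 (SE 0.12, limma, adjusted p = 0.0162), and these were the only calls of the list there, a share of 2 in 16 beside 17.8% of all genes. The 1 call in LPS/HI against Sham was Nfkbid, an NF-kB regulator, which fell by 0.29 (limma, adjusted p = 0.0233), beside 8.77% of all genes. Il1b, at 0.54, and Ccl2, at -0.53, were also called in LPS against NaCl/HI (limma, adjusted p = 0.00574 and 0.00799), beside 8.98% of all genes, and limma called 0 of the 16 in the other 4 comparisons, with between 1 and 7 at an unadjusted p under 0.05. Of 12 integrated stress response genes, Phgdh, an enzyme of serine synthesis, rose by 0.55 and Atf5 by 0.39 in LPS against Sham, while Atf4, the main factor of this response, fell by 0.21 (limma, adjusted p = 7.4e-05, 0.00625 and 0.0496). These were the 2 called as higher and the 1 called as lower, beside 17.8% of all genes called. Of these 12, 2 rose in LPS/HI against Sham, Trib3 at 0.63 and Phgdh at 0.25, beside 8.77% of all genes called. In LPS/HI against LPS, where 1.94% of all genes were called, 2 rose, Trib3 by 0.82 and the growth arrest gene Gadd45a by 0.45 (limma, adjusted p = 0.00915 and 0.0288). In LPS against NaCl/HI 2 rose, Phgdh by 0.48 and Atf5 by 0.36, beside 8.98% of all genes called. In the other 3 comparisons limma called 0 of the 12, with between 3 and 5 at an unadjusted p under 0.05. Of 15 heat shock and ubiquitin genes 1 rose in LPS against Sham, Hsp90ab1 at 0.23, beside 17.8% of all genes called. In LPS/HI against Sham 1 rose, Hspb1 at 0.57, beside 8.77% of all genes called, and 0 fell in either comparison. In the other 5 comparisons limma called 0 of these 15, with between 1 and 4 at an unadjusted p under 0.05.

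Within groups, the members varied more than most genes, and they varied together. After the group means were subtracted, the SD of a member across samples was between 0.13 for Egr1 and 0.25 for Egr2, beside a median of 0.11 over all genes. The share of all genes with a smaller SD was 69.7% for Egr1, 86.4% for Fos, 93.5% for Fosb and 96.1% for Egr2. Counted only over genes with a mean above the median gene's, these shares were 78.3%, 90.5%, 95.5% and 97.3%. The removal of surrogate variables by the authors had taken 3 of the 19 dimensions of variation within groups, so these SDs describe what was left.

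All 36 pairs of members correlated positively within groups over the 23 samples, with Pearson's r between 0.22 for Junb with Egr2 and 0.90 for Jun with Ier2, and a median of 0.53. Fos correlated at 0.90 with Jun and at 0.89 with Fosb, Junb at 0.86 with Ier2, and Egr1 at 0.75 with Egr2. Nr4a1 and Atf3 were looser, at 0.26 with each other, and Nr4a1 reached 0.57 with Egr2 at most. The median r over all pairs of genes was 0.003, and 4.32% of them were above the members' median. Among pairs of genes with a mean above the median gene's, the median was 0.014 and 7.91% were above. The first principal component of the 9 members held 61.6% of their variance within groups, where an even share is 11.1%. These values are descriptions: the samples share 1 normalization and the same removed variables, and no p is given.

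The same samples were low or high in most members at once. Sham replicate 4 was the lowest Sham sample in 8 of 9 members and below the group mean in all 9, by 0.24 on average. NaCl/HI replicate 3 was lowest in 6 members and below the mean in 9, by 0.18 on average. LPS/HI replicate 1 was lowest in 5, among them Junb at 13.49 and Ier2 at 13.08, yet it was above the mean in Egr2. LPS replicate 4 was below the mean in 9 members and LPS/HI replicate 3 in 8, the latter by 0.16 on average. At the other end LPS/HI replicates 2 and 6, NaCl/HI replicate 6, LPS replicate 3 and Sham replicate 6 were above their group mean in all 9, by between 0.08 and 0.18 on average. With 1 sample left out the median r lay between 0.46, without Sham replicate 4, and 0.62, without LPS/HI replicate 1.

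**Figure D3:**
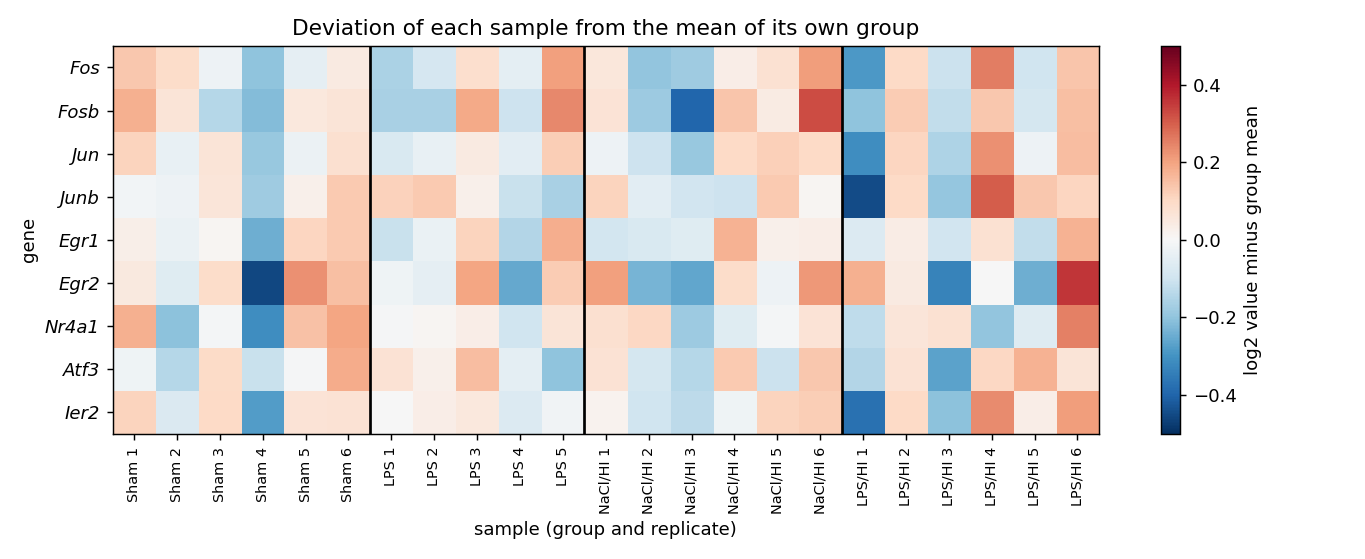
Log2 value minus the mean of the sample's own group for the 9 immediate early genes (rows) in the 23 samples (columns, black lines between groups), with red above and blue below the group mean. The column of Sham replicate 4 is blue and that of LPS/HI replicate 6 is red in all 9 rows.

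The genes whose values within groups were most like the members' mean were Snx32 at r = 0.93, Ppp1r15a at 0.91, Ddit3 at 0.89, Spry1 and Tmem132a at 0.88, Gdf15 at 0.86, Btg2 at 0.86, Icam4 and Slx1b at 0.85, and Klf4 at 0.84 over the 23 samples. Ppp1r15a restores translation after stress, Ddit3 is the factor CHOP, Spry1 dampens ERK signalling, Gdf15 is a stress cytokine, and Btg2 and Klf4 are early-response genes of the wider list. Of these 10, Snx32 fell by 0.33, Spry1 by 0.24 and Icam4 by 0.39 in LPS against Sham (limma, adjusted p = 0.015, 0.0362 and 0.0118), and Icam4 fell by 0.37 in LPS/HI against Sham (limma, adjusted p = 0.0256). The members themselves reached r between 0.51 for Nr4a1 and 0.89 for Jun with the mean of the other 8.

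Over whole lists, r with the members' mean was above 0.5 for 11 of 20 relatives and 17 of 31 other early-response genes, with medians of 0.55 and 0.59, beside 5.59% of the 20292 genes outside the members and a median of 0.017. Among the relatives Jund reached 0.82, Nab2 0.81 and Dusp4 0.78, while Batf was at -0.17. Among inflammatory early-response genes 7 of 16 were above 0.5, led by Ccl3 at 0.82, Icam1 at 0.75 and Cxcl2 at 0.72. The 27 upstream kinases and factors had a median of 0.05, with 4 above 0.5. Heat shock and ubiquitin genes had a median of 0.12 and went both ways, with Dnajb1 at 0.57 but Hsp90aa1 at -0.55 and Hspd1 at -0.51. Of the integrated stress response genes 3 of 12 were above 0.5, Ppp1r15a, Ddit3 and Atf4, the last at 0.79.

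Markers of cell types stood beside this spread as follows. Of 7 monocyte and border macrophage markers 5 had r above 0.5, Pf4 at 0.73, Lyve1 at 0.59, Mrc1 and Cd163 at 0.57 and F13a1 at 0.52, while Ccr2 was at -0.51. In Sham replicate 4 the list was at a median of -0.20 from its group mean, in NaCl/HI replicate 3 at -0.37 and in LPS replicate 4 at -0.26, but in LPS/HI replicates 1 and 3, where the members were also low, it was at 0.11 and 0.03. Of 15 microglia markers 4 were above 0.5, with a median of 0.22 and Trem2 at 0.74, and the 1 below -0.5 was Siglech, whose values lay close to the lowest of the table. All 8 astrocyte markers and all 11 neutrophil markers had r below 0, with medians of -0.45 and -0.30, and the 10 mural and fibroblast markers had a median of -0.35. In the samples with low members, the astrocyte list was at a median of 0.27 from its group mean in Sham replicate 4, 0.38 in NaCl/HI replicate 3, 0.11 in LPS/HI replicate 1 and 0.04 in LPS replicate 4, but at -0.11 in LPS/HI replicate 3. Neuron markers had a median of 0.20 with 1 of 11 above 0.5, and the 8 oligodendrocyte, 8 endothelial, 6 T and B cell and 5 erythrocyte markers had none above 0.5. The part of any of these cell types in the shared spread was not tested.

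**Figure D4:**
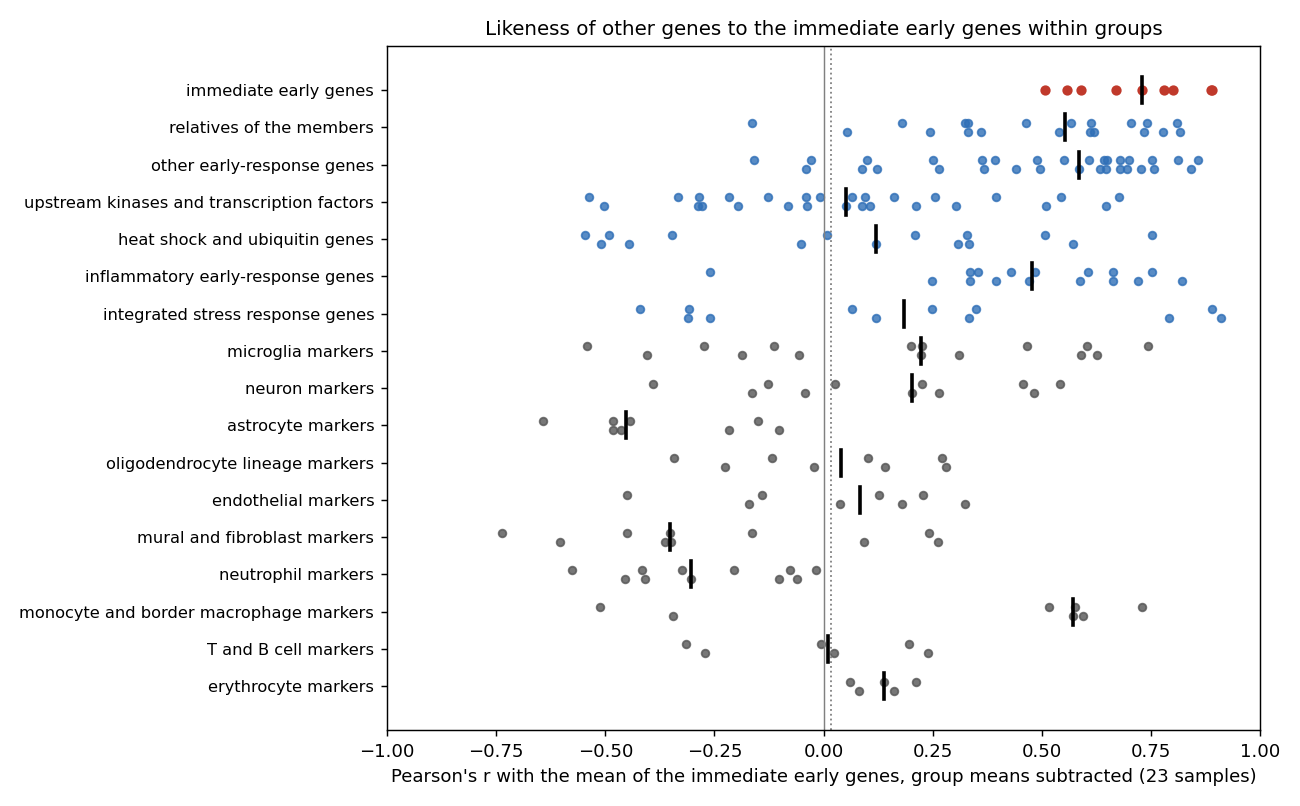
Pearson's r over the 23 samples, with group means subtracted, between each gene of a list (points) and the mean of the immediate early genes, or for a member the mean of the other 8 (top row, red). Black bars are list medians and the dotted line is the median of all genes outside the members at 0.017. Relatives and other early-response genes (blue) lie mostly to the right, and astrocyte and neutrophil markers (grey) to the left of 0.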

How the data were processed

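RNA of CD11b/c-isolated microglia was sequenced in 23 samples, which were grouped by their titles. The authors quantified the reads with kallisto 0.48.0 on mRatBN7.2 transcripts, imported them into R, left out genes with fewer than 10 counts over all samples, transformed the counts with the rlog function and subtracted 3 surrogate variables by means of sva and limma. The deposited values are log2 values, from -1.35 to 23.4. As no counts were used here, the depth of a sample is unknown and no count test was run. This removal lowers the spread within groups, since the samples spanned 16 residual dimensions in place of 19, and its effect on group means was not tested.

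All 20301 genes were tested with limma 3.58.1 in R 4.3.3, with a variance trend and 16 residual degrees of freedom, and Benjamini-Hochberg adjustment over all genes of a comparison. The 6 pairs of groups share samples, so their calls are not independent. Correlations were computed in Python 3.11.15 on values with group means subtracted. The members and the 16 other gene lists were chosen with earlier results of these data known. All members are named, and of each other list up to 5 genes with the smallest adjusted p under 0.05, beside the 10 genes most like the members' mean and, as examples, genes with high or low r or defining markers, chosen after their values were seen. Mafk and Cldn5 of these lists were not analysed here. Whether samples with the same replicate number deviate together was checked. The fit was also run on simulated data, and the outcome is not given here. The labels call replicates biological. Alternatives changed 1 choice at a time: degrees of freedom, robust variances, variance trend, replicate block, only the groups compared, library series, low genes, median centring, quantile normalization, sample weights, an exact permutation test, and each sample left out. The authors' deposited log2 values were used with no further filter.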

Additional observations from a re-analysis of the deposited data

How the results depend on the processing

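Fosb and Egr2 in LPS against Sham were called under all 11 alternatives and with any of the 23 samples left out (adjusted p in limma without 1 sample from 0.00247 to 0.0228 for Fosb and from 0.000125 to 0.00293 for Egr2), and Egr2 in LPS/HI against Sham under 10 of 11, the exception being the exact permutation test at an adjusted p of 0.0516. The number of called members in LPS against Sham moved from 2 to 5 with the degrees of freedom not lowered and to 4 without the lowest 25% of genes. In LPS/HI against Sham it moved from 2 to 1 in the fit of only the groups compared, with the replicate block and with quantile normalization, and to 0 by the exact permutation test. In LPS against NaCl/HI it moved from 1 to 2 with the degrees of freedom not lowered and with sample weights, and to 0 with robust variances, no variance trend, the replicate block, only the groups compared and the exact permutation test. With sample weights it was 3 in LPS/HI against LPS and 2 for the interaction, each from 0, and the estimation of these weights stopped ahead of its convergence tolerance. In fits of only the groups compared the degrees of freedom were also lowered by 3, which is an assumption, since the loss of 3 dimensions was measured over all 23 samples. For the other alternatives the counts stayed within 1.5 times. With degrees of freedom that were not lowered, the alternative's construction lowers the p values, and otherwise the cause was not tested. With 1 sample left out the counts ran from 2 to 4 in LPS against Sham, 1 to 2 in LPS/HI against Sham and 0 to 2 in LPS against NaCl/HI, and stayed at 0 elsewhere.

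The following differences changed sign, none of them called, and the cause was not tested. With sample weights Nr4a1 in NaCl/HI against Sham was at 0.051, and in LPS/HI against Sham Fos was at 0.0474, Junb at 0.0772, Nr4a1 at 0.0474 and Atf3 at 0.0234. With these weights Jun was at 0.00732, Junb at 0.0114 and Ier2 at 0.044 in LPS/HI against LPS, Jun at 0.0719 and Egr1 at 0.0171 in LPS/HI against NaCl/HI, and Egr1 at 0.0173 in LPS against NaCl/HI. Quantile normalization brought Junb to -0.00059 in LPS against Sham and Jun to -0.00393 in LPS against NaCl/HI, and median centring brought Fosb to -0.013 in LPS/HI against NaCl/HI and the interaction of Junb to -0.0133.

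Leaving out 1 sample turned further small differences, none called. Junb ran from -0.0144 to 0.0618 in LPS against Sham, from -0.0959 to 0.0544 in LPS/HI against Sham, from -0.117 to 0.033 in LPS/HI against LPS, from -0.0205 to 0.13 in LPS/HI against NaCl/HI and from -0.042 to 0.108 in the interaction. In NaCl/HI against Sham Nr4a1 ran from -0.0772 to 0.0244 and Atf3 from -0.0169 to 0.0484. In LPS/HI against LPS Egr1 ran from -0.0654 to 0.0174 and Ier2 from -0.0892 to 0.0327. In LPS/HI against NaCl/HI Fos ran from -0.00681 to 0.102, Fosb from -0.0756 to 0.0684, Jun from -0.0776 to 0.0301, Nr4a1 from -0.0871 to 0.00263 and Ier2 from -0.0285 to 0.0935. Egr1 ran from -0.0633 to 0.0195 in LPS against NaCl/HI.

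Over 33 pairs of samples with the same replicate number from different groups, the correlation of their deviations had a median of -0.03, with 9 above 0.1. Over 165 pairs with other numbers the median was 0.006, with 49 above 0.1. Of 23 samples 5 matched best with their own number. The removed surrogate variables may have held a shared deviation, so this check cannot show that none existed. As the labels do not say what a replicate number marks, the replicate block is a check only. Beside the counts above, it brought Egr1 to 0.00519 in LPS against NaCl/HI. The interaction was not run by the exact permutation test or in a fit of 2 groups. The median r between members, under alternatives chosen after seeing the data, was 0.54 to 0.56 with another normalization or the library series removed. The unknown depth limits what can be said of weakly expressed genes such as Egr4.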
